A study of Mus musculus with 42 samples.

Results

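The 10 genes described here encode surface proteins through which a macrophage costimulates or restrains a T cell: Cd80, Cd86, Icosl, Cd274, Pdcd1lg2, Cd40, Tnfsf9, Slamf7, Icam1 and Cd83. They were chosen by symbol, as the rows of the count table whose Ensembl identifier maps to them, and all 10 were found among the 37310 genes of the table. The choice was made with earlier results of these data known, so the shares of all genes given below do not test the list. The name costimulatory and checkpoint ligands fits 6 of them in the strict sense, since Cd40 and Slamf7 encode receptors, Icam1 an adhesion molecule and Cd83 a marker of activated antigen-presenting cells. The cells were mouse bone-marrow-derived macrophages (BMDM), grown from marrow in medium conditioned by L929 cells. Libraries labelled KO came from mice with loxP-flanked Irf5 and a Cre recombinase inserted in Lyz2, which deletes in myeloid cells. Libraries labelled WT came from mice without this deletion. The cross, of C57BL/6-Irf5tm1Ppr/J with B6.129P2-Lyz2tm1(cre)Ifo/J mice, is that of the study's methods, since the labels give the genotype only as WT or KO. Untreated cells (Control) were collected at 0, 2 and 24 h, and cells given palmitate, a saturated fatty acid, or bacterial lipopolysaccharide (LPS) at 2 and 24 h. Each of the 14 groups of genotype, treatment and time held 3 libraries, 42 in all. The labels do not give the age or sex of the mice. The study's methods state that all its mice were male and give an age range in weeks at the start of experiments. Nor do the labels say whether libraries of a group came from separate animals or cultures. The p-values therefore measure only the spread between these libraries, which may be technical.

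A T cell that recognises antigen needs a second signal from the antigen-presenting cell. CD80 and CD86, of the B7 family, give it by binding CD28, and give a restraining signal by binding CTLA-4, while ICOS ligand (Icosl) binds ICOS on T cells already activated. PD-L1 (Cd274) and PD-L2 (Pdcd1lg2) are B7 relatives that bind PD-1 and restrain the T cell. In the tumour necrosis factor (TNF) branch, CD40 on the macrophage receives CD40 ligand from the T cell, and 4-1BB ligand (Tnfsf9) binds 4-1BB. ICAM-1 binds the integrin LFA-1 and holds the cells together, and SLAMF7 is a self-binding receptor of the SLAM family. LPS acts through Toll-like receptor 4 and NF-kB, and in macrophages it is known for inducing many of these genes.

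Start regions were examined for 6 of the 10 genes, those with an entry in the RefSeq promoter set of GRCm38.p6 (250 bases before and 50 after the annotated start). Cd40, Cd86, Cd83 and Tnfsf9 had none. Each region was searched on both strands for an NF-kB consensus (GGRRNNYYCC, R being A or G and Y being C or T), an interferon-stimulated response element (GAAANNGAAA), an AP-1 site (TGANTCA) and a GAS element (TTCNNNGAA). No match overlapped another in these regions. Only exact matches were counted, so a site 1 base off a pattern is not marked. Of 32851 mouse promoters of the same length, 11.2% held the NF-kB consensus, 3.44% the response element, 7.81% the AP-1 site and 8.3% the GAS element. The part upstream of any annotated exon is shown for Icam1 and Icosl, whose levels moved most alike among the genes with an entry, and for Pdcd1lg2, which stayed near 0, with each match in capitals. These stretches lie on the plus strand at chr9:21015690-21015939, chr10:78069118-78069301 (184 bases) and chr19:29410669-29410918.
Icam1: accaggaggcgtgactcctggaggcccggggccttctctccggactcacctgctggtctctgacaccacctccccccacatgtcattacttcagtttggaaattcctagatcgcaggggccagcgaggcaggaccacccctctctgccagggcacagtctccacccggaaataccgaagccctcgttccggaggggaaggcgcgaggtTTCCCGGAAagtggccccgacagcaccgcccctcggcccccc
Icosl: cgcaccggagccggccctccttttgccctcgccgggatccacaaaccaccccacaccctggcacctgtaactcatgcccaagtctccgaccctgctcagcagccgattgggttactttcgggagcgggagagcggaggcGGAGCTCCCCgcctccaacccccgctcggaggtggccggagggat
Pdcd1lg2: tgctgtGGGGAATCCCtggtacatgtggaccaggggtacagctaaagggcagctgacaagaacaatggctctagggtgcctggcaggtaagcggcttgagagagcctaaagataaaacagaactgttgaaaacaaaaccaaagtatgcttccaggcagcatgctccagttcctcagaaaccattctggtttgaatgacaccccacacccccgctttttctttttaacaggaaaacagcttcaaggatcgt
In Icam1 the match was a GAS element starting at -42 from the RefSeq start. In Icosl and Pdcd1lg2 it was the NF-kB consensus, at -111 and -244. Slamf7 and Cd80 each held 1 AP-1 site, TGACTCA and TGATTCA, and Cd274 held no match to these 4 patterns. For Slamf7 and Cd80 the bases before the RefSeq start lay wholly or mostly inside the annotated gene. For Cd274 they overlapped an exon of Plgrkt. The matches describe letters only, and none was tested for binding.

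The total count per library was 2848793 to 7743442, and 3 counts corresponded to 0.387 to 1.05 CPM (counts scaled to library size, by TMM where a level is given). Of the members, 9 were among the 11624 genes with enough counts to be tested, and Pdcd1lg2 was not. Irf5, the targeted gene, was at 209.5 to 389 CPM in the libraries labelled WT and at 267 to 430.5 CPM in those labelled KO. It was thus not lower in the libraries labelled KO. A count over the whole gene cannot show whether only the loxP-flanked part was lost, so it does not decide the genotype. Groups are called KO and WT below only as labelled. The 8 macrophage markers, all among the genes tested, summed to 9800 to 23595 CPM. The 9 dendritic cell markers, from a cell type that expresses many of the same ligands, summed to 2.50 to 14.7 CPM, with Xcr1 at most at 0.557 CPM and Cd209a at most at 0.566 CPM. In bulk RNA fewer cells of a type and less RNA per cell cannot be told apart.

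Before treatment, Slamf7 had the highest level of the 10 genes when levels were divided by exon length. In WT Control 0 h it was at 41.7 ± 1.91 CPM per kb (SD, n = 3, as for each ± here), followed by Cd274 at 16.7 ± 1.61, Cd83 at 11.1 ± 2.32 and Icam1 at 8.68 ± 0.730 CPM per kb. Cd83 and Icam1 overlapped between libraries, while Slamf7 and Cd274 stood apart from the gene after them. Cd86 (2.54 ± 1.48), Cd40 (1.83 ± 0.379), Icosl (1.23 ± 0.275), Cd80 (1.03 ± 0.553) and Tnfsf9 (0.784 ± 0.243 CPM per kb) formed a low group in which every neighbour overlapped the next. Pdcd1lg2 was lowest at 0.0844 ± 0.0808 CPM per kb. In WT Control 0 h the order was the same by coding length, while in KO Control 0 h 6 genes changed place, Tnfsf9 from 6 to 9. The untreated macrophages therefore carried more mRNA per kb of the PD-1 ligand Cd274 than of the CD28 ligands Cd80 and Cd86.

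**Figure D1:**
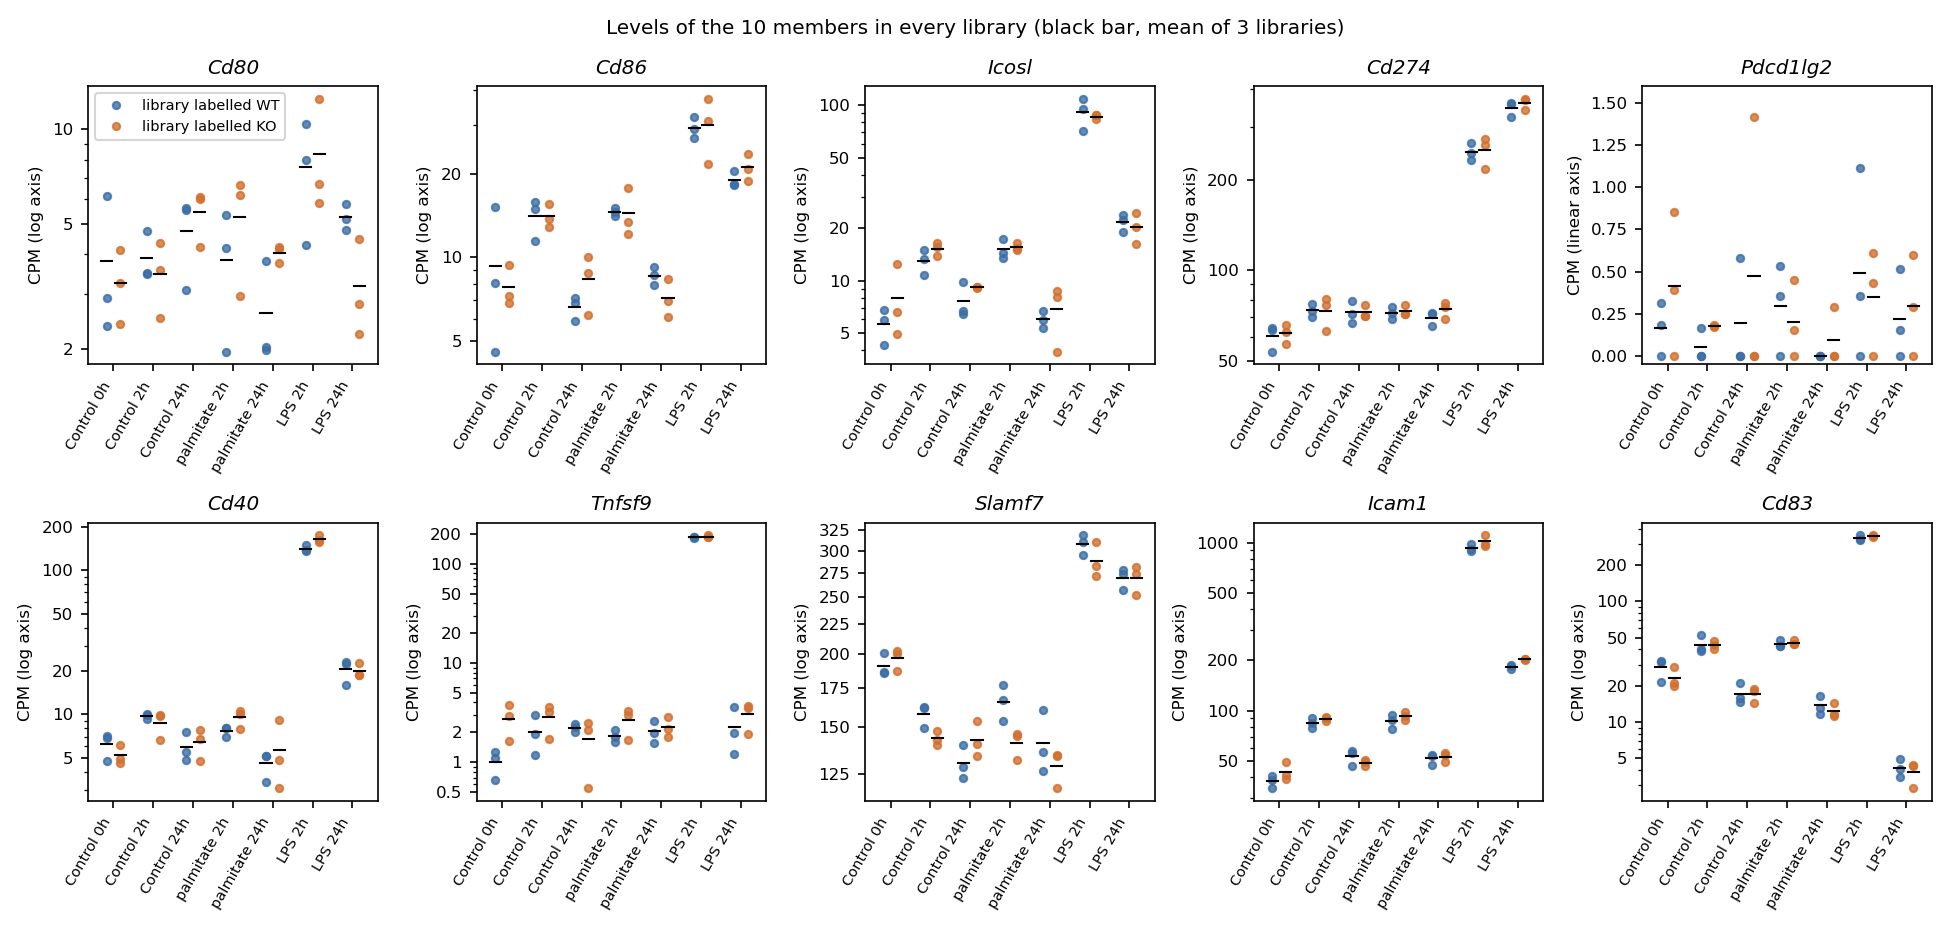
Level in TMM-scaled CPM (log axis, except a linear axis for Pdcd1lg2) of each of the 10 genes in all 42 libraries, by condition, with libraries labelled WT in blue and KO in orange and a black bar at the mean of 3 libraries. The LPS 2 h libraries stand above all others for Tnfsf9 (181 to 194 CPM) and Icam1 (893 to 1108 CPM), the LPS 24 h libraries are highest for Cd274 (323 to 372 CPM) and lowest for Cd83 (2.83 to 4.96 CPM), and the palmitate libraries lie near Control.

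Within 2 h of LPS every one of the 9 tested genes was higher than in Control 2 h, in both genotypes. The share of all tested genes called higher in the same comparison was 14% in WT and 14.7% in KO. The median log2 fold change of the 9 was 2.82 in WT and 2.50 in KO, against -0.01 over all genes in either. The sizes ran from near 1 (Slamf7, Cd80, Cd86) to 6.50 (Tnfsf9). Beside them, the macrophage markers summed to 14416 to 15846 CPM in WT LPS 2 h against 14459 to 15074 CPM in WT Control 2 h, and the dendritic cell markers to 2.50 to 9.47 against 2.96 to 6.58 CPM, which overlapped. In KO LPS 2 h both sums lay above Control 2 h, at 11343 to 12137 against 10237 to 11054 CPM for the macrophage markers and at 8.51 to 9.87 against 3.05 to 8.51 CPM for the dendritic cell markers, the latter apart only beyond the digits given. The granulocyte precursor markers were apart in WT, at 45.4 to 66.1 CPM in LPS 2 h against 19.3 to 33.1 CPM in Control 2 h, and overlapped in KO. The T or NK cell markers were apart in KO, at 85.0 to 87.8 against 89.6 to 103 CPM, and overlapped in WT, and the B cell markers overlapped in both. The part of these differences in the member values was not tested.

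Of the ligands that costimulate through CD28 and ICOS, Icosl moved most. In WT it was at 14.9, 10.8 and 13.2 CPM in Control 2 h and at 109, 71.1 and 95.5 CPM in LPS 2 h, and in KO at 15.6, 13.8 and 16.3 against 83.1, 87.5 and 87.4 CPM. The groups lay far apart, with log2 fold changes of 2.82 (SE 0.19, adjusted p 4.27e-18) in WT and 2.50 (SE 0.18, adjusted p 2.09e-16) in KO. Cd86 was at 15.9, 14.9 and 11.4 CPM in WT Control 2 h and at 26.8, 32.1 and 29 CPM in WT LPS 2 h. In KO the values were 12.8, 15.6 and 13.7 against 37.2, 31 and 21.6 CPM. No library overlapped, and Cd86 rose 2.11-fold in WT (log2 1.07, SE 0.21, adjusted p 5.12e-05) and 2.09-fold in KO (adjusted p 6.6e-05). Cd80 was the least certain member. It was at 3.48, 3.47 and 4.74 CPM in WT Control 2 h and at 4.29, 8.02 and 10.4 CPM in WT LPS 2 h, where library 1, with 12 counts, fell inside the Control range. In KO the values were 4.34, 2.51 and 3.56 against 12.5, 6.69 and 5.84 CPM, which did not overlap. Its log2 fold change was 1.00 in WT (SE 0.36, adjusted p 0.0393) and 1.20 in KO (SE 0.38, adjusted p 0.0141). The WT call was lost without any of 4 of the 6 libraries (Control library 1 or 2, LPS library 2 or 3, log2 0.70 to 0.98), and the KO call without LPS library 1 (0.84) or Control library 2 (1.02).

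The checkpoint ligands differed widely in level. Cd274, which encodes PD-L1, was at 70.3, 73.3 and 77.3 CPM in WT Control 2 h and at 246, 233 and 265 CPM in WT LPS 2 h. In KO the values were 76.5, 80.2 and 63.1 against 218, 262 and 274 CPM. The groups were far apart, and Cd274 rose by a log2 of 1.75 in WT (SE 0.08, adjusted p 1.08e-23) and 1.79 in KO (SE 0.08, adjusted p 5.86e-24). Pdcd1lg2, which encodes PD-L2, had 0 counts in 19 of the 42 libraries and at most 10 counts (1.42 CPM), in KO Control 24 h library 3. In LPS 2 h it had 12 counts over 6 libraries, and in Control 2 h 4 counts over 6 libraries. The libraries of both conditions overlapped, and Pdcd1lg2 entered no test. Its highest level in LPS 2 h was 1.11 CPM. The mean in WT was 0.0551 ± 0.0955 CPM in Control 2 h and 0.491 ± 0.569 CPM in LPS 2 h. Between such low levels even a large fold change was not resolved at this depth. Both genes lie on chromosome 19 and on the same strand, Cd274 at 29367455 to 29388095 and Pdcd1lg2 at 29410919 to 29471161 (GRCm38), with 22824 bases between them.

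In the TNF branch both genes had larger fold changes than any B7 gene in both genotypes. Tnfsf9 was at 1.94, 2.98 and 1.19 CPM in WT Control 2 h, which is 8 to 18 counts, and at 181, 187 and 185 CPM in WT LPS 2 h. In KO it was at 3.62, 3.22 and 1.70 against 184, 184 and 194 CPM. This was the widest separation among the 9 genes, 90.8-fold in WT (log2 6.50, SE 0.22, adjusted p 4.88e-30) and 65.8-fold in KO (log2 6.04, SE 0.21, adjusted p 1.6e-29). Tnfsf9 overlaps Gm11110 on the opposite strand, which had at most 13 counts in a library. Cd40 was at 9.87, 9.26 and 10.1 CPM in WT Control 2 h and at 149, 138 and 135 CPM in WT LPS 2 h. The KO libraries were at 9.77, 6.62 and 9.84 against 156, 175 and 161 CPM. Cd40 thus rose 14.4-fold in WT (log2 3.85, SE 0.17, adjusted p 3.38e-25) and 18.7-fold in KO (log2 4.23, SE 0.17, adjusted p 1.49e-26), with no overlap.

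Icam1 became the most abundant of the 10 genes. It was at 78.2, 83.7 and 89.9 CPM in WT Control 2 h and at 976, 916 and 893 CPM in WT LPS 2 h, and in KO at 90.3, 90.9 and 86.0 against 1108, 984 and 957 CPM. It rose 11-fold in WT (log2 3.46, SE 0.08, adjusted p 1.85e-37) and 11.4-fold in KO (log2 3.51, SE 0.08, adjusted p 1e-37). Slamf7 was already high and rose less. It was at 163, 162 and 149.8 CPM in WT Control 2 h and at 295, 311 and 319 CPM in WT LPS 2 h (log2 0.97, SE 0.07, adjusted p 7.47e-16). In KO the values were 143, 140.2 and 148 against 271, 311 and 282 CPM (log2 1.01, SE 0.07, adjusted p 2.45e-16). Neither gene's groups overlapped. Cd83 was at 39.1, 52.3 and 40 CPM in WT Control 2 h and at 331, 354 and 326 CPM in WT LPS 2 h, and in KO at 43.4, 40.1 and 46.7 against 353, 349 and 341 CPM. It rose by a log2 of 2.94 in WT (SE 0.11, adjusted p 6.43e-28) and 3.00 in KO (SE 0.11, adjusted p 3.29e-28), again without overlap.

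Per kb of exon, the order in WT LPS 2 h was Icam1 (213 ± 9.76 CPM per kb), Tnfsf9 (143 ± 2.23), Cd83 (131 ± 5.87), Cd274 (68.5 ± 4.42), Slamf7 (67.3 ± 2.63), Cd40 (41.3 ± 2.22), Icosl (19.9 ± 4.13), Cd86 (8.0 ± 0.718) and Cd80 (2.04 ± 0.831 CPM per kb). Cd274 and Slamf7 overlapped, and the other neighbours did not. By coding length in WT Icam1 stayed first, but Tnfsf9 moved from place 2 to place 5, Cd83 to place 2 and Slamf7 to place 3, so the order of these 3 depends on which length is used. The classical CD28 ligands Cd86 and Cd80 kept places 8 and 9 by either length, in KO too.

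At 24 h of LPS the 9 genes had taken different courses. In both genotypes 6 of 9 were higher than in Control 24 h, where 19.6% of all genes were called higher in WT and 19.9% in KO. Cd83 alone was lower, with 19.9% of genes called lower in WT and 21% in KO, and Cd80 and Tnfsf9 passed in neither direction. The median log2 fold change of the 9 was 1.49 in WT and 1.14 in KO, against -0.01 over all genes in either. The macrophage markers summed to 18228 to 23595 CPM in WT LPS 24 h against 16038 to 16673 CPM in WT Control 24 h, and to 13517 to 13677 against 10705 to 11315 CPM in KO. The granulocyte precursor markers were lower, at 30.8 to 33.4 against 51.4 to 61.5 CPM in WT and 42 to 63.4 against 128 to 199 CPM in KO. The B cell markers were higher, at 47.5 to 58.6 against 29.4 to 38.7 CPM in WT and 50.7 to 65.0 against 35.8 to 43.7 CPM in KO. The T or NK cell markers, which include Cd28 and Cd4, were at 24.6 to 35.1 against 83.5 to 98.9 CPM in WT and 37.2 to 49.5 against 98.6 to 100.1 CPM in KO. The dendritic cell markers overlapped in WT and were lower in KO, at 5.67 to 10.1 against 12.7 to 14.7 CPM. The part of these differences in the member values was not tested. Whether the response itself differed between 24 h and 2 h was tested for each gene as the difference of both fold changes, which called 14.5% of genes higher and 18.1% lower in WT and 14.3% and 19% in KO.

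**Figure D2:**
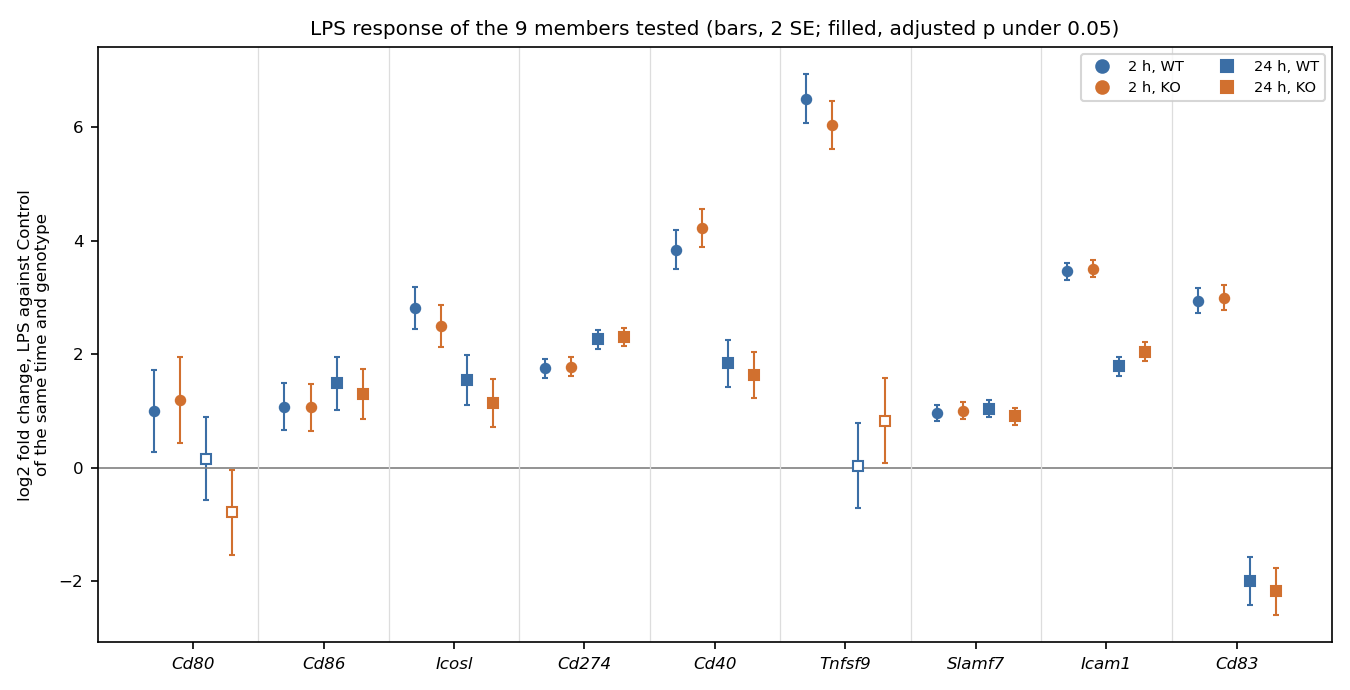
Log2 fold change of LPS against Control of the same time and genotype for the 9 tested genes, at 2 h (circles) and 24 h (squares), WT blue and KO orange, with bars of 2 SE and filled symbols where the adjusted p was under 0.05. All 2 h symbols are filled and above 0, Cd274 lies higher at 24 h than at 2 h, Cd83 crosses from 2.94 to -1.99 in WT, and the Tnfsf9 and Cd80 symbols at 24 h are open.

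Cd274 continued upwards. In WT LPS 24 h it was at 359, 323 and 357 CPM against 79.4, 66.9 and 71.8 CPM in Control 24 h, and in KO at 368, 342 and 372 against 70.5, 70.7 and 77.0 CPM. All LPS 24 h libraries exceeded all LPS 2 h libraries. The log2 fold change was 2.26 in WT (SE 0.08, adjusted p 2.49e-28) and 2.31 in KO (SE 0.08, adjusted p 8.6e-29), greater than at 2 h by 0.51 in WT (SE 0.12, adjusted p 0.000469) and 0.52 in KO (SE 0.12, adjusted p 0.000354). PD-L1 was the only one of the 9 whose response was called larger at 24 h than at 2 h. Per kb of exon it was then the highest of the 10 genes in WT, at 95.6 ± 5.55 CPM per kb, ahead of Slamf7 at 58.9 ± 2.46 and Icam1 at 41.8 ± 1.24 CPM per kb, with no overlap between these 3 and the same places by coding length.

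Slamf7 and Cd86 were higher at 24 h too. Slamf7 was at 274, 257 and 278 CPM in WT LPS 24 h against 123, 128 and 139.9 CPM in Control 24 h (log2 1.04, SE 0.07, adjusted p 4.94e-17). In KO it was at 252, 282 and 274 against 134, 141 and 154 CPM (log2 0.91, SE 0.07, adjusted p 4.4e-15). Cd86 was at 20.4, 18.2 and 18.4 CPM in WT LPS 24 h against 5.90, 6.86 and 7.14 CPM (log2 1.49, SE 0.23, adjusted p 5.55e-07), and in KO at 20.7, 23.5 and 18.9 against 6.21, 10.0 and 8.78 CPM (log2 1.30, SE 0.22, adjusted p 2.99e-06). The groups did not overlap for either gene. The response at 24 h minus that at 2 h was 0.08 for Slamf7 (SE 0.10) and 0.42 for Cd86 (SE 0.31) in WT, and -0.10 (SE 0.10) and 0.24 (SE 0.31) in KO, and none of these passed the test.

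Icam1, Cd40 and Icosl were still induced but less. Icam1 was at 176, 184 and 186 CPM in WT LPS 24 h against 57.5, 55.5 and 46.6 CPM in Control 24 h (log2 1.79, SE 0.08, adjusted p 2.52e-24). In KO it was at 199.8, 202 and 203 against 50.4, 46.7 and 49.6 CPM (log2 2.04, SE 0.08, adjusted p 1.01e-26). Its response was smaller than at 2 h by 1.67 on the log2 scale in WT (SE 0.11) and by 1.47 in KO (SE 0.11). Cd40 was at 22.9, 16.1 and 22.5 CPM against 7.58, 5.49 and 4.81 CPM in WT, and at 18.8, 18.9 and 22.5 against 6.70, 4.74 and 7.79 CPM in KO. It remained 3.58-fold higher in WT (adjusted p 2.15e-10) and 3.10-fold higher in KO (adjusted p 2.33e-09), with no overlap. Icosl was at 23.6, 18.9 and 22.2 CPM against 9.83, 6.69 and 6.41 CPM in WT, and at 24.2, 16.2 and 20.1 against 9.19, 9.11 and 9.20 CPM in KO. It was 2.92-fold higher in WT (adjusted p 6.77e-08) and 2.21-fold higher in KO (adjusted p 1.33e-05).

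Tnfsf9 and Cd80 were back near Control. Tnfsf9 was at 1.20, 3.64 and 1.99 CPM in WT LPS 24 h and at 2.25, 2.40 and 2.04 CPM in Control 24 h, and in KO at 3.73, 3.55 and 1.90 against 2.48, 0.547 and 2.12 CPM. The groups overlapped in both genotypes, with log2 fold changes of 0.04 (SE 0.38, adjusted p 0.949) and 0.83 (SE 0.37, adjusted p 0.0702). In KO the call depended on the tool and the libraries, since DESeq2 passed it at 0.83 and edgeR did so without Control library 1 (1.07) or LPS library 3 (1.10). Cd80 was at 4.79, 5.79 and 5.21 CPM in WT LPS 24 h against 5.61, 3.09 and 5.54 CPM. In KO it was at 4.47, 2.24 and 2.78 against 4.22, 6.01 and 6.09 CPM, and again all groups overlapped. Its log2 fold change was 0.16 in WT (SE 0.36) and -0.78 in KO (SE 0.37, adjusted p 0.0923), and the KO value was called without LPS library 1 (-1.12).

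Cd83 was the one gene that passed from induced to repressed. In WT LPS 24 h it was at 4.11, 4.96 and 3.52 CPM against 21.1, 14.6 and 15.9 CPM in Control 24 h, and in KO at 2.83, 4.29 and 4.39 against 14.4, 19 and 18 CPM. The LPS 24 h libraries were below every other library of the series, Control 0 h included. Cd83 was 3.98-fold lower in WT (log2 -1.99, SE 0.21, adjusted p 2.46e-11) and 4.53-fold lower in KO (log2 -2.18, SE 0.21, adjusted p 1.56e-12). Its response at 24 h differed from that at 2 h by -4.93 (SE 0.23, adjusted p 3.02e-23) in WT and by -5.18 (SE 0.23, adjusted p 6.57e-24) in KO. Cd274 and Cd83, both strongly induced at 2 h, therefore ended on opposite sides of Control.

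Over the 14 group means of log2 CPM, Pearson's r between 2 members ranged widely, as a description in which all points share the same libraries and the LPS 2 h groups weigh heavily. It was 0.99 for Cd40 and Icam1 and 0.98 for Icosl and Icam1, but 0.01 for Cd274 and Cd83. Among 7812 other genes whose mean reached 10 CPM, the 3 most like Cd40 were Tnip1 (r 0.996), Irf1 (0.995) and Marcksl1 (0.991), those most like Icam1 were Orai2 (0.994), Peli1 (0.992) and Birc3 (0.992), and those most like Icosl were Socs3 (0.986), Cxcl10 (0.985) and Orai2 (0.985). Tnip1, Peli1 and Birc3 encode proteins that act on NF-kB signalling, and Socs3 restrains cytokine receptors. Tnfsf9 was most like Rab11fip1 (0.993), Zfp263 (0.991) and Hivep1 (0.990). Cd274 followed Vasp (0.997), Slc7a2 (0.995) and Mocs1 (0.994), and Vasp was at 134, 327 and 451 CPM in WT Control 2 h, LPS 2 h and LPS 24 h. Cd83 followed Lrrc8b (0.979), Tlnrd1 (0.979) and Plaur (0.974), and Plaur, the urokinase receptor, was at 52.1, 175 and 18.9 CPM in the same groups. Cd86 followed Slc15a3 (0.981), Lrrc8c (0.973) and Slc7a1 (0.968), Slamf7 followed March5 (0.964), Tcp1 (0.959) and Cmpk2 (0.955), and Cd80 no gene above 0.877 (Dmtf1, then Zfyve16 at 0.875 and Rab5a at 0.859).

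No tested member was called for palmitate. None of 9 was called at 2 h in WT or KO, where 0.275% and 0.112% of all genes were called, or at 24 h, where 0.852% and 0.877% were. Of the 36 tests by edgeR 0 passed, 2 had an unadjusted p under 0.05 (Cd80 in WT and Cd83 in KO, both at 24 h), and DESeq2 also called 0. These comparisons share their Control libraries with the LPS comparisons. For Cd274, the best counted of the B7 genes, WT palmitate 24 h was at 72.0, 71.6 and 65.5 CPM against 79.4, 66.9 and 71.8 CPM in Control 24 h. The groups overlapped, and the log2 fold change was -0.05, with an interval of 2 SE from -0.23 to 0.13. Icam1 at 2 h in WT gave 0.04, with an interval from -0.13 to 0.20, and Slamf7 0.07, from -0.08 to 0.22. For genes with few counts the interval was wide, as for Tnfsf9 at 2 h in WT (-0.14, from -0.95 to 0.67).

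Among the palmitate values, Cd83 in KO at 24 h had the smallest adjusted p. It was at 11.3, 14.3 and 11.6 CPM in palmitate and at 14.4, 19 and 18 CPM in Control 24 h, without overlap (log2 -0.49, SE 0.17, adjusted p 0.249). In WT the values were 11.8, 13.1 and 16.4 against 21.1, 14.6 and 15.9 CPM, which overlapped (log2 -0.28, SE 0.17, adjusted p 0.66). Cd80 in WT at 24 h was at 3.81, 2.03 and 1.98 CPM in palmitate against 5.61, 3.09 and 5.54 CPM in Control, which overlapped (log2 -0.84, SE 0.40, adjusted p 0.525). Groups that did not overlap but were not called were those of Cd40 in WT at 2 h (log2 -0.34), Cd86 in WT at 24 h (0.35), and Cd80 and Icosl (both -0.44) in KO at 24 h. With so few libraries a group, unchanged genes can lie apart too, and the share of all genes that did was not computed.

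Between genotypes, 1 of 63 tests of a member passed, that of Tnfsf9 at Control 0 h. There it was at 3.73, 2.91 and 1.62 CPM in KO (19, 17 and 9 counts) and at 1.27, 1.11 and 0.661 CPM in WT (7, 7 and 5 counts). The groups did not overlap, and Tnfsf9 was 2.75-fold higher in KO (log2 1.46, SE 0.42, adjusted p 0.0168). At Control 0 h 12.5% of all genes were called between genotypes, so 1 of 9 members is near that share. The call was lost when only the 6 libraries compared were fitted (1.45), without KO library 1 (1.20) and without WT library 3 (1.19). In the same libraries the granulocyte precursor markers summed to 73.4 to 81.7 CPM in KO and 47.2 to 55.3 CPM in WT. The macrophage markers summed to 10341 to 14298 and 15387 to 15695 CPM. Lyz2, the site of the Cre insertion, had the largest median of the macrophage list over all libraries, 8216 CPM, and the sum without it was not computed. In the granulocyte precursor list Ltf (18.3 CPM), S100a9 (17.2) and Ngp (16.1) had the largest medians. Elane and Ctsg had a median of 0 and Mpo of 2.50 CPM. Both lists lay apart between genotypes in the same directions in every other condition too. At Control 24 h, for example, the granulocyte precursor markers summed to 128 to 199 CPM in KO and 51.4 to 61.5 CPM in WT. The part of these differences in the Tnfsf9 value, or in those of other members, was not tested.

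In the other 6 conditions 0 of 9 members were called. The share of all genes called was 0.490% at Control 2 h, 0.120% at Control 24 h, 0.146% at palmitate 2 h, 0.0688% at palmitate 24 h, 0.465% at LPS 2 h and 0.146% at LPS 24 h. Of the 63 edgeR tests 5 had an unadjusted p under 0.05, and DESeq2 called the same count of 1, at Control 0 h. Under LPS the well-counted members gave narrow intervals. For Cd274 KO against WT was 0.02 (from -0.13 to 0.18) at 2 h and 0.06 (from -0.09 to 0.21) at 24 h, for Tnfsf9 at 2 h 0.02 (from -0.25 to 0.30) and for Cd83 at 2 h 0.04 (from -0.15 to 0.24). Icam1 at LPS 24 h was at 199.8, 202 and 203 CPM in KO and at 176, 184 and 186 CPM in WT, groups that did not overlap (log2 0.15, SE 0.07, adjusted p 0.548). Slamf7 at palmitate 2 h was at 145, 146 and 132 CPM in KO and at 167, 154 and 177 CPM in WT, again apart (log2 -0.23, SE 0.07, adjusted p 0.24). Slamf7 at Control 2 h (log2 -0.14), Cd40 at LPS 2 h (0.23) and Cd80 at LPS 24 h (-0.71) were also apart and not called. Here too the share of all genes whose groups lay apart was not computed, and unchanged genes can be among them.

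The responses to treatment were also compared between genotypes directly. None of 36 tests of a member's response, KO minus WT, passed in edgeR or DESeq2. The values ran from -0.95 (Cd80) to 0.79 (Tnfsf9), both for LPS 24 h. Of the 36, 2 had an unadjusted p under 0.05. They were Icam1 for LPS 24 h, at 0.26 (from 0.02 to 0.49), and Slamf7 for palmitate 24 h, at -0.26 (from -0.47 to -0.04). Of all genes 0% were called for LPS 2 h, 0% for palmitate 2 h, 0.00860% for LPS 24 h and 0% for palmitate 24 h. The difference in the LPS 2 h response was 0.03 for Cd274 (from -0.20 to 0.27), 0.05 for Icam1 (from -0.16 to 0.26) and 0.06 for Cd83 (from -0.25 to 0.37). For Cd80 it was 0.20 (from -0.85 to 1.25). The extremes at LPS 2 h were Tnfsf9 at -0.46 (from -1.24 to 0.31) and Cd40 at 0.38 (from -0.12 to 0.88). The Irf5 count was no lower in the libraries labelled KO and does not decide the genotype, so these intervals compare the labels.

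**Figure D3:**
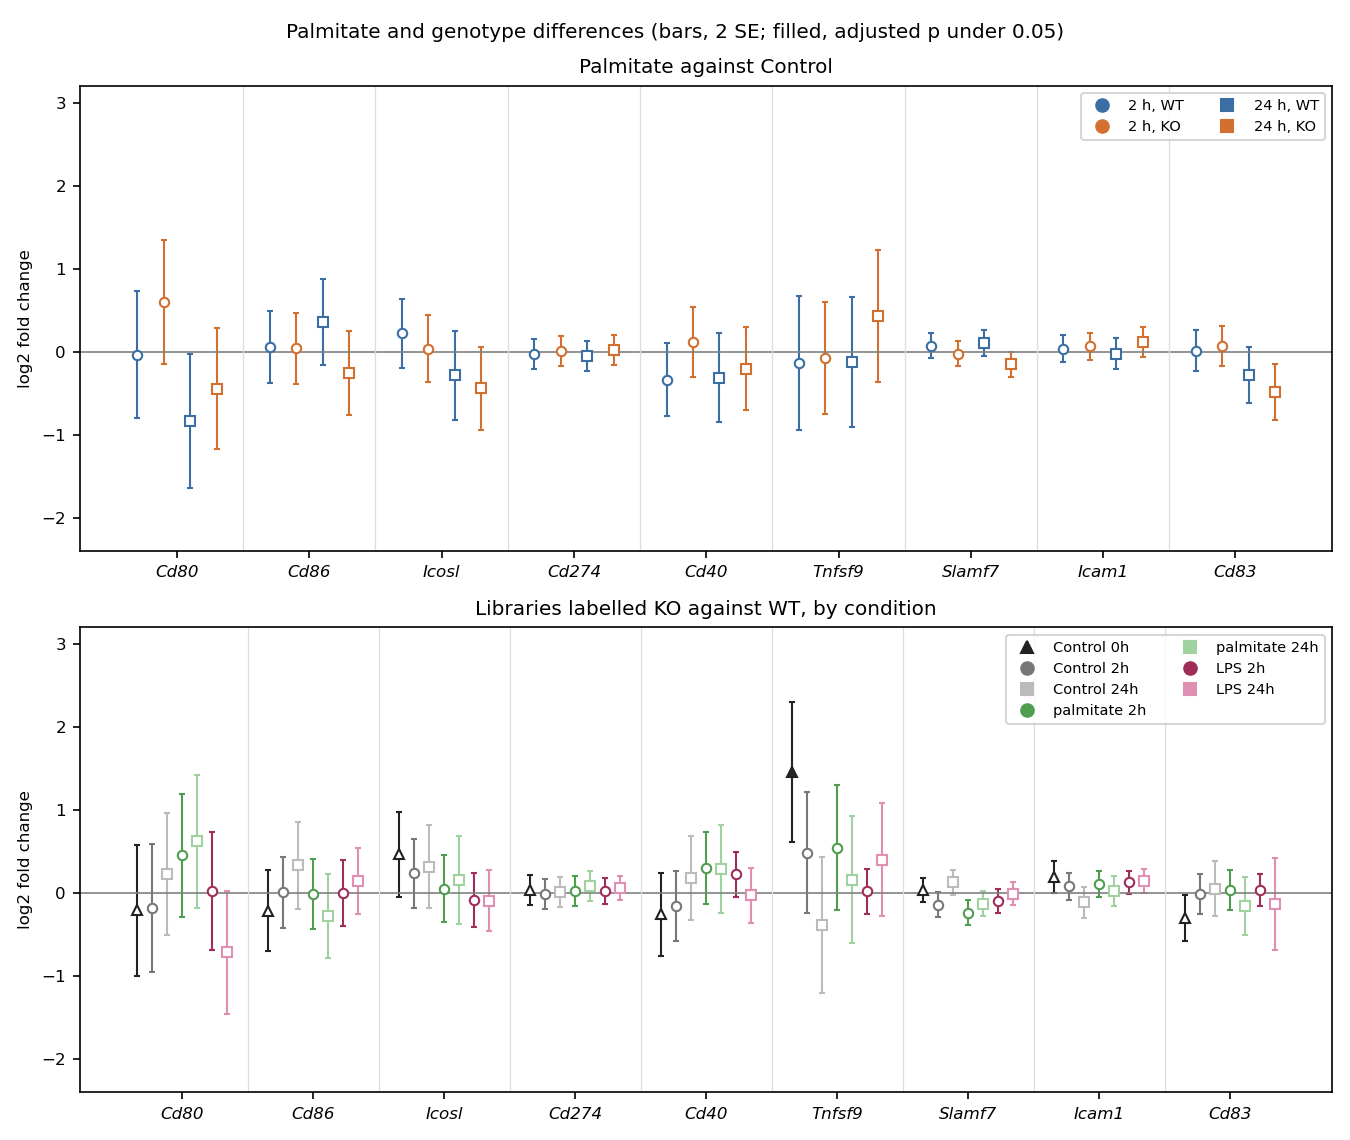
Log2 fold changes of the 9 tested genes with bars of 2 SE, for palmitate against Control (upper panel, circles 2 h, squares 24 h, WT blue, KO orange) and for KO against WT in each of 7 conditions (lower panel), on the same axis. The 1 filled symbol (adjusted p under 0.05) is Tnfsf9 at Control 0 h, at 1.46, and the bars of Cd80 and Tnfsf9 are the longest.

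Levels also changed in untreated culture. In Control 2 h against 0 h, over both genotypes, 6 of 9 were higher, where 9.35% of all genes were, and 1 was lower, where 7.36% were. Icam1 rose 2.14-fold (log2 1.10, SE 0.06, adjusted p 4.43e-20), from 34.4 to 49.7 CPM over the 6 libraries of 0 h to 78.2 to 90.9 CPM over those of 2 h, with no overlap. Icosl rose 2.09-fold (SE 0.16, adjusted p 1.23e-06), from 4.26 to 12.4 CPM to 10.8 to 16.3 CPM, which overlapped. Cd83 rose by a log2 of 0.76, Cd86 by 0.73, Cd40 by 0.69 and Cd274 by 0.26. Slamf7 fell by 0.36 on the log2 scale (SE 0.05, adjusted p 2.77e-07), from 185 to 203 CPM to 140.2 to 163 CPM, with no overlap. Cd80 (0.09) and Tnfsf9 (0.53) did not pass.

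By Control 24 h most of this rise was no longer seen. Against 0 h, 2 of 9 were higher (7.90% of all genes) and 2 lower (8.62%). Icam1 was 1.26-fold higher (adjusted p 0.000228), at 46.6 to 57.5 CPM, and Cd274 1.19-fold higher (adjusted p 0.00456). Cd83 fell by 0.60 on the log2 scale (SE 0.11, adjusted p 3.45e-05), to 14.4 to 21.1 CPM, and Slamf7 by 0.50 (SE 0.05, adjusted p 2.47e-10), to 123 to 154 CPM. Cd83 and Slamf7 thus lay lower at 24 h than at 0 h without treatment, and each LPS value above is set against the Control of its own time.

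A wider list of 52 relatives, receptors and partners put the 10 genes in context, with 50 found in the table and 38 tested. At LPS 2 h 14 were higher and 3 lower in WT, and 14 and 5 in KO, with a median log2 fold change of 0.12 in WT and 0.27 in KO. Of all genes 9.10% were lower in WT and 9.16% in KO, beside the 14% and 14.7% that were higher. At 24 h 19 were higher and 10 lower in WT and 17 and 10 in KO. The median was then 0.48 in WT and 0.46 in KO, and of all genes 19.6% and 19.9% were higher and 19.9% and 21% lower. These shares of all genes apply to each group of the list below.

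The CD40 adaptors were mostly higher. Of 5 TRAF genes tested, 4 were higher at 2 h (14% of all genes in WT, 14.7% in KO) and 3 at 24 h (19.6% and 19.9%), in both genotypes, and 0 were lower. Traf1 was at 8.72 ± 0.457 CPM in WT Control 2 h and 72.5 ± 8.47 CPM in LPS 2 h (log2 3.04, SE 0.17, adjusted p 1.35e-20), and Traf3 at 115 ± 2.06 and 227 ± 11.2 CPM (log2 0.99, SE 0.08, adjusted p 4.58e-15). Traf2 rose by 0.66 (SE 0.13, adjusted p 0.000134). Of 7 further TNF family ligands 3 were tested. Tnfsf15 went from 1.93 ± 0.776 to 24.5 ± 3.71 CPM (log2 3.66, SE 0.35, adjusted p 1.96e-12) and Tnfsf4, the ligand of OX40, from 0.547 ± 0.143 to 6.99 ± 1.07 CPM (log2 3.61, SE 0.67, adjusted p 2.51e-05). Tnfsf13b, which encodes the B cell factor BAFF, was at 0.383 ± 0.436 CPM in WT Control 24 h and 3.38 ± 1.23 CPM in LPS 24 h (log2 2.93, SE 0.69, adjusted p 0.000511), after a log2 of 0.83 at 2 h that did not pass.

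Of 5 further B7 relatives, 3 were tested, and all 3 were lower at LPS 24 h in both genotypes. Cd276, or B7-H3, was at 11.5 ± 3.08 CPM in WT Control 24 h and 1.07 ± 0.484 CPM in LPS 24 h (log2 -3.36, SE 0.34, adjusted p 5.97e-12). Vsig4, a complement receptor that restrains T cells, was at 4.53 ± 1.01 and 0.659 ± 0.444 CPM (log2 -2.79, SE 0.47, adjusted p 2.24e-06). Vsir, or VISTA, was abundant and changed little, from 425 ± 4.95 to 343 ± 32.6 CPM (log2 -0.31, SE 0.06, adjusted p 2.89e-05). At 2 h none of the 3 passed in WT, and Vsir was lower in KO (-0.21, adjusted p 0.00769).

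Of the receptors that members bind, 2 of 7 were tested. Cd28, the receptor of CD80 and CD86 on T cells, was at 65.9 ± 6.16 CPM in WT Control 24 h and 7.87 ± 2.85 CPM in LPS 24 h, and at 70.0 ± 4.12 and 10.0 ± 2.69 CPM in KO. It fell by 3.05 on the log2 scale in WT (SE 0.16, adjusted p 1.84e-22) and by 2.79 in KO (SE 0.15, adjusted p 6.1e-22), while at LPS 2 h its values were -0.21 and -0.29 and did not pass. Genes of T cells themselves were near 0. Across all libraries Cd3d was at most at 0.358 CPM, Cd3e at 1.03 CPM, Cd8a at 0.686 CPM and Trac at 0.993 CPM, and only Cd4, which macrophages can also express, was of similar size, at 18.3 to 43.1 CPM. Rgmb, which binds PD-L2, was lower at LPS 2 h in WT (log2 -0.48, SE 0.16, adjusted p 0.0269) and not called in KO (-0.39, adjusted p 0.0827).

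Genes that act on the turnover of the proteins also changed. March1, now Marchf1, encodes a ubiquitin ligase that removes CD86 from the surface. It was at 70.6 ± 3.37 CPM in WT Control 2 h and 35.5 ± 4.07 CPM in LPS 2 h (log2 -1.01, SE 0.10, adjusted p 1.3e-12), but at 55.7 ± 5.87 in Control 24 h and 156 ± 5.03 CPM in LPS 24 h (log2 1.47, SE 0.08, adjusted p 7.78e-21). KO gave -0.80 and 1.23, both called. March1 was thus below Control when Cd86 first rose and above it at 24 h, when Cd86 was still 2.82-fold above Control. Cmtm6, which keeps PD-L1 on the surface, was at 112 ± 2.28 and 113 ± 5.88 CPM at 2 h in WT (log2 0.00, SE 0.08) and lower at 2 h in KO (-0.23, adjusted p 0.0199). At 24 h it was lower in WT (-0.22, adjusted p 0.0133) and in KO (-0.28, adjusted p 0.00172).

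Among adhesion partners 4 of 8 tested were higher at LPS 2 h in both genotypes and none was lower. Vcam1, an adhesion molecule that binds the integrin VLA-4, went from 31.1 ± 10.2 to 128 ± 13.8 CPM in WT (log2 2.05, SE 0.18, adjusted p 2.86e-13) and was near Control at 24 h (-0.35, adjusted p 0.208). Pvr, a ligand of DNAM-1 and TIGIT, rose by 1.63 (SE 0.14, adjusted p 1.75e-14). Itgal, the LFA-1 chain that binds ICAM-1, rose by 0.87 at 2 h and 1.39 at 24 h, reaching 635 ± 29.5 CPM. Of 8 SLAM family genes 1 was higher and 0 lower at 2 h in WT, and 1 and 1 in KO. At 24 h 5 were higher and 1 lower in WT, and 4 and 1 in KO, where 19.6% and 19.9% of all genes were higher. Slamf8 rose by 0.85 at 2 h and by 3.26 at 24 h (4.09 ± 0.802 to 38.2 ± 4.51 CPM), Ly9 by 0.55 at 24 h only, and Cd48, at 0.19 at both times, did not pass. Of 7 other checkpoint genes tested 3 were higher and 1 lower at 2 h, and 3 higher and 3 lower at 24 h, in both genotypes. Pirb, an inhibitory receptor, rose by 0.35 and then 1.5, Cd47, the "do not eat me" ligand, by 0.27 and then 0.62, and Cd200 by 2.12 at 2 h, from 0.572 ± 0.496 to 2.8 ± 1.06 CPM.

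**Figure D4:**
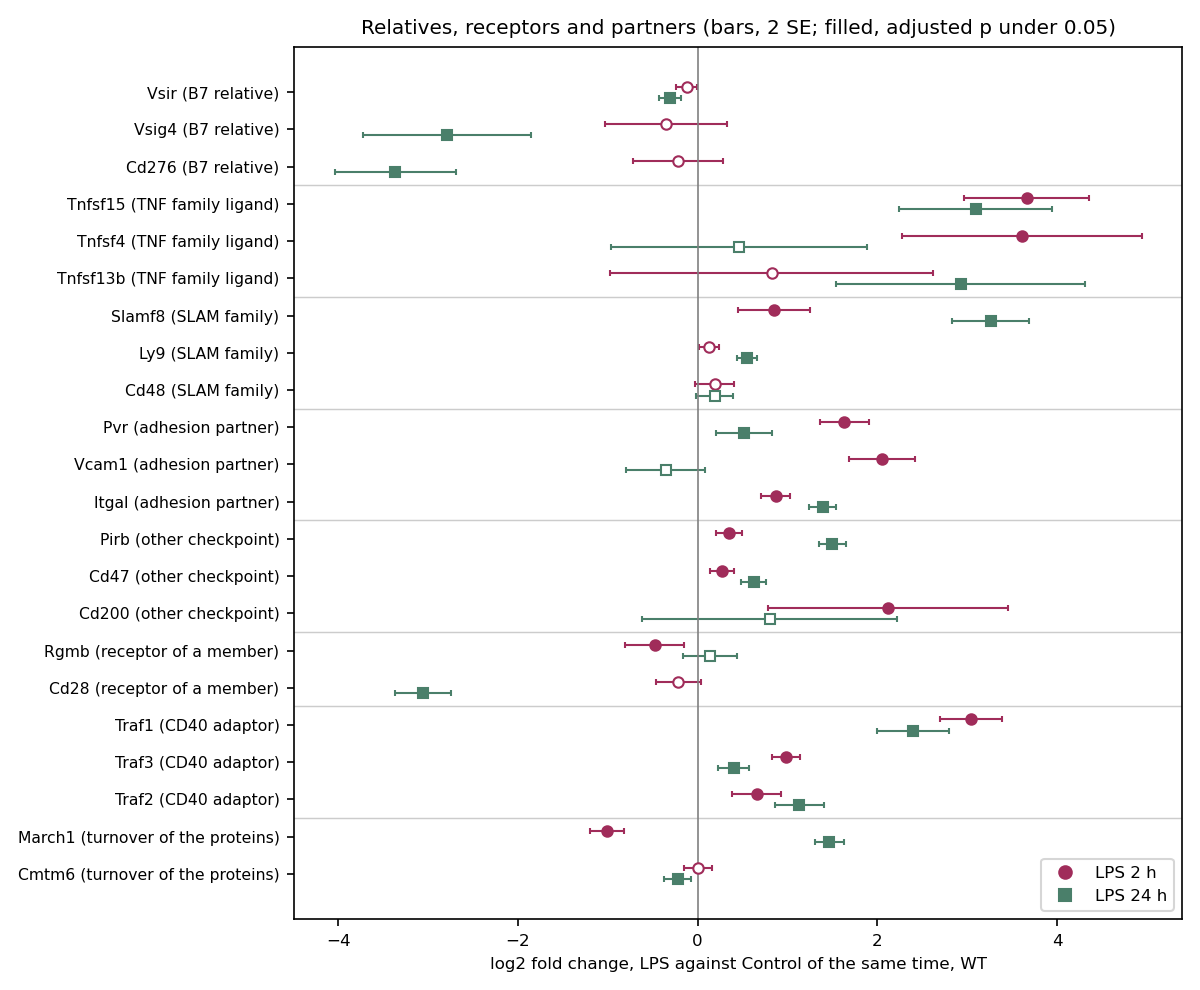
Log2 fold change of LPS against Control of the same time in WT for the named genes of the wider list, grouped by kind, at 2 h (red circles) and 24 h (green squares), with bars of 2 SE and filled symbols where the adjusted p was under 0.05. March1 changes side between 2 h (-1.01) and 24 h (1.47), and Cd28 (-3.05), Cd276 (-3.36) and Vsig4 (-2.79) lie far below 0 at 24 h.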

How the data were processed

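RNA-seq was performed on 42 BMDM libraries (stranded, ribodepleted total RNA, paired ends). The authors trimmed reads with fastp 0.19.11, aligned them to mm10 with STAR 2.7.3a and deposited gene-level counts that were not normalised. The release of the annotation and the strand setting of the counting are not given in the sources used here, so genes overlapping on either strand are uncertain. Symbols and positions are from GENCODE annotation of GRCm38. Each column named a group and no replicate, so library numbers follow column order and pair nothing, and 0 columns were left unused.

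Genes kept by filterByExpr (11624) were scaled by TMM and fitted in edgeR 4.0.16 (R 4.3.3) with 1 mean per group over all 42 libraries. The quasi-likelihood test with Benjamini-Hochberg adjustment over all genes tested gave each adjusted p, and genes were called under 0.05. There were 23 comparisons: 8 of treatment, 7 of genotype, 4 interactions, 2 of the LPS response between times and 2 of culture time. The script was tested on simulated data. Libraries of a group differed by a chi-square per degree of freedom of 1.93 to 9.32, so none was a copy of another. This does not show that they came from separate animals or cultures. Count-based precision, including the 3-count level, covers counting error only.

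Levels between genes were divided by summed exon length. All members were named. Of each group of the wider list at most 3 genes were named, those with the smallest adjusted p in LPS 2 h, WT, and for each member the 3 genes of highest r. The members and lists were chosen with earlier results of these data known. Lilrb4a and Cmtm4 of the list were not analysed here. Alternatives were RLE factors, all genes with a count, only the libraries compared, DESeq2 1.42.0 (used by the study), leaving out each library, and coding length.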

Additional observations from a re-analysis of the deposited data

Results flagged for a closer look

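The LPS response of these members differed between 24 h and 2 h in the interaction test, with values as log2 fold change at 24 h minus that at 2 h. In WT the difference was -2.01 for Cd40, -1.27 for Icosl, -6.46 for Tnfsf9, -4.93 for Cd83 and -1.67 for Icam1, and 0.51 for Cd274. In KO it was -2.60 for Cd40, -1.98 for Cd80, -1.36 for Icosl, -5.21 for Tnfsf9, -5.18 for Cd83 and -1.47 for Icam1, and 0.52 for Cd274. Among the genes with a smaller response, Cd83 was below Control at 24 h, Cd40, Icosl and Icam1 were still above it, and Tnfsf9, and Cd80 in KO, were not called against it. Cd80 was called in KO and not in WT (-0.83, SE 0.52, adjusted p 0.224), and the difference between genotypes in this time course was not tested.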

How the results depend on the processing

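RLE factors, all genes with a count and DESeq2 gave the same number of called members in each of 23 comparisons, except 8 in place of 7 for LPS 24 h in KO by DESeq2 (Tnfsf9, 0.83). With only the libraries compared, KO against WT at Control 0 h gave 0 in place of 1 member and no other count changed. Leaving out 1 library in turn gave 0 to 2 members at KO against WT, Control 0 h (Cd83 was called there at -0.48 without KO library 2 and at -0.46 without WT library 2), 8 to 9 at LPS 2 h in WT and in KO, 7 to 8 at LPS 24 h in KO and 4 to 5 at Control 24 h against 0 h (Icosl, 0.51, without KO Control 0 h library 1, and Cd80, 0.79, without WT Control 0 h library 1). The other counts did not change. The cause of these changes was not tested. Over the 62 member values called in any setting, leave-one-out left 513 values on their side of the threshold, called or not, while 8 lost the call and 7 gained it, and none reversed. By coding length 8 places in the order of levels under LPS moved in WT and none at WT Control 0 h, and places also moved in KO, at Control 0 h too. No paired analysis was possible because the columns carry no replicate numbers. Depth limits Pdcd1lg2, Tnfsf9 outside LPS 2 h and Cd80, which had at most 56 counts in a library.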
